A study of Rattus norvegicus with 23 samples.

Results

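The circadian clock genes described here are Clock, Npas2, Arntl, Per1, Per2, Per3, Cry1, Cry2, Nr1d1 and Dbp. They were chosen by name, as components of the clock and 1 of its outputs, and Arntl is the symbol under which the deposited table lists the gene now called Bmal1. These are 10 of the 30452 genes in the table, and all 10 were among the 14777 genes with enough counts to be tested.

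NRK-52E cells are an epithelial line and NRK-49F cells a fibroblast line, both from normal rat kidney, and each is a single established line. Both were kept for 24 h in medium without serum, a step the labels call synchronization, and then held for 48 h either in control medium at pH 7.4 or in medium brought to pH 6.0 with hydrochloric acid. Poly(A) RNA was sequenced from n = 6 samples of NRK-52E cells at each pH, from n = 6 samples of NRK-49F cells at pH 7.4 and from n = 5 at pH 6.0, so 23 samples in 4 conditions were compared. The labels also assign the samples to sample groups, numbered 1 and 3 in the epithelial line and 4 and 6 in the fibroblast line. Each sample group holds both pH values, and what it stands for is not given in the sources used here. Which samples of a condition came from separate cultures is not given in the sources used here, so p-values measure the spread between these samples, which may be technical.

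The mammalian clock is a transcriptional feedback loop that most cells carry, those of the kidney included. CLOCK or its paralog NPAS2 pairs with BMAL1, the product of Arntl, and the pair activates genes that carry E-boxes, among them the Per and Cry genes, Nr1d1 and Dbp. PER and CRY proteins return to the nucleus and repress the pair, the nuclear receptor REV-ERBα encoded by Nr1d1 represses Arntl, and DBP activates genes with D-boxes. Because transcripts of these genes cycle over the day and all samples were taken at the same 48 h, a change of level and a shift of phase cannot be told apart in these data.

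Sites of these 3 kinds can be seen in the promoters of some members, and the following stretches are shown because they hold such letters in genes whose levels are described below. They were read from RefSeq's rat genome GRCr8, in windows from 250 bases before to 50 bases after a gene's start, in which 9 of the 10 genes, all but Cry1, had an entry, with 11 windows in all. Each stretch is written 5′ to 3′ along its gene, and capitals mark the letters that were searched for on both strands.
Arntl (Bmal1), chr1:176766292-176766327, plus strand, TAGGTCA in capitals: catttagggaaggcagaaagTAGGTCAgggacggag
Per2, chr9:99497030-99497205, minus strand, TTATGTAA and CACGTT in capitals: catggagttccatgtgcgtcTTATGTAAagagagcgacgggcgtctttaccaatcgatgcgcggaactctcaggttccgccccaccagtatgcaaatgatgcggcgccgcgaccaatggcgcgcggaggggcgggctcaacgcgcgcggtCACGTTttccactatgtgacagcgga
Cry2, chr3:98860624-98860669, minus strand, AACGTG in capitals: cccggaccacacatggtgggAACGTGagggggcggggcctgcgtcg
Nr1d1, first start, chr10:84231961-84232006, minus strand, AACGTG in capitals: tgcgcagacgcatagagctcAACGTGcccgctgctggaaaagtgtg
Nr1d1, second start, chr10:84229620-84229665, minus strand, CACGTG in capitals: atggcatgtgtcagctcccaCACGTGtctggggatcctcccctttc
The E-box CACGTG stood in 1 of the windows of Nr1d1, and its variant CACGTT, which reads AACGTG on the other strand, in windows of Per2, Cry2 and Nr1d1. Among all 33469 windows, 6.42% hold the former and 4.83% the latter. Per2 also held the D-box TTATGTAA, which with TTACGTAA is found in 1.01% of windows. Arntl held the letters TAGGTCA, the core of the element that REV-ERBα and its activating counterparts of the ROR family share, and 6.6% of windows hold TAGGTCA or TGGGTCA. The cAMP response element TGACGTCA (1.83% of windows), its short form TGACG, which it contains (21.2%), and the ATF4 element core TGATGCAA (0.795%) were searched as well, and only the short form was found, in windows of Per2 and Per3. The windows of Clock, Npas2, Per1 and Dbp held none of the letters searched, and sites outside these windows were not searched. A match of letters is a description and not a bound site.

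Total counts per sample ranged from 16412564 to 34250535. Levels are given as FPM, counts per 1000000 counts of a library size scaled with TMM factors (trimmed mean of M values), and 3 counts, taken as the smallest level the depth can show, correspond to 0.0839 to 0.203 FPM. FPM are not corrected for gene length, so a level is compared between samples and not between genes. Of the markers fixed for epithelial cells, Krt8 was at 441 to 651 FPM in NRK-52E cells at pH 7.4, but Epcam, Krt18, Pax8 and Cdh1 had at most 12 counts and Cldn1 had none in any NRK-52E sample. At pH 7.4 the means of Krt7 and Tjp1 were higher in NRK-52E than in NRK-49F cells (21.8 against 1.42 and 243 against 147 FPM). That of Krt8 was lower (499 against 839 FPM). The summed level of the 10 epithelial markers in the table lay between 711 and 846 FPM in NRK-52E cells at pH 7.4 and between 497 and 583 FPM at pH 6.0, against 845 to 1318 and 599 to 794 FPM in NRK-49F cells. The 12 fibroblast markers summed to 5711 to 8914 FPM in NRK-52E controls and 2168 to 3544 FPM after acid exposure, against 19334 to 21553 and 14467 to 15737 FPM in the fibroblasts, with Thy1 at 0 in all NRK-52E samples and at 4 counts or fewer in every NRK-49F sample. Col3a1 had a higher mean in NRK-52E than in NRK-49F controls (6149 against 1212 FPM). All other fibroblast markers but Thy1 and Fap had a lower one, as Pdgfra did (1.83 against 306 FPM). The 9 markers of endothelium, leukocytes and smooth muscle summed to 187 to 381 and 51.7 to 59.2 FPM in NRK-52E cells and to 38.8 to 55.4 and 228 to 263 FPM in NRK-49F cells, with the endothelial Kdr at 0 in every sample. In NRK-52E cells this sum followed Acta2, whose mean went from 246 to 37.5 FPM, while 4 of the 5 tested markers were called higher and 1 lower (edgeR). In NRK-49F cells the sum followed Cd68, whose mean went from 29.9 to 229 FPM. There 1 of the 5 tested markers was called higher and 1 lower (edgeR). The cell types are therefore called here by the names of the lines. The part of these marker shifts in the results on clock genes was not tested, and in bulk RNA fewer cells of a type and less RNA per cell cannot be told apart.

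The first comparison asked how the clock genes of the epithelial line differ after exposure to pH 6.0. Cry1 rose most, 3.57-fold, Per1, Per3, Clock and Cry2 rose less, and Arntl fell, while Per2, Nr1d1 and Dbp did not pass the test. Npas2 was called lower on at most 13 counts per sample, and it passed the count filter only through its level in NRK-49F cells. In counts, 5 of the 10 genes were higher and 2 lower (quasi-likelihood test of edgeR, p adjusted by Benjamini-Hochberg over all tested genes, under 0.05). Over all tested genes, 61.2% were called in this comparison, 24.7% higher and 36.6% lower. The median log2 fold change of the 10 genes was 0.25, against -0.12 over all tested genes. In 3 of the 10 genes (Cry1, Per1 and Arntl) the levels at both pH values did not overlap, as in 38.6% of all tested genes.

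**Figure D1:**
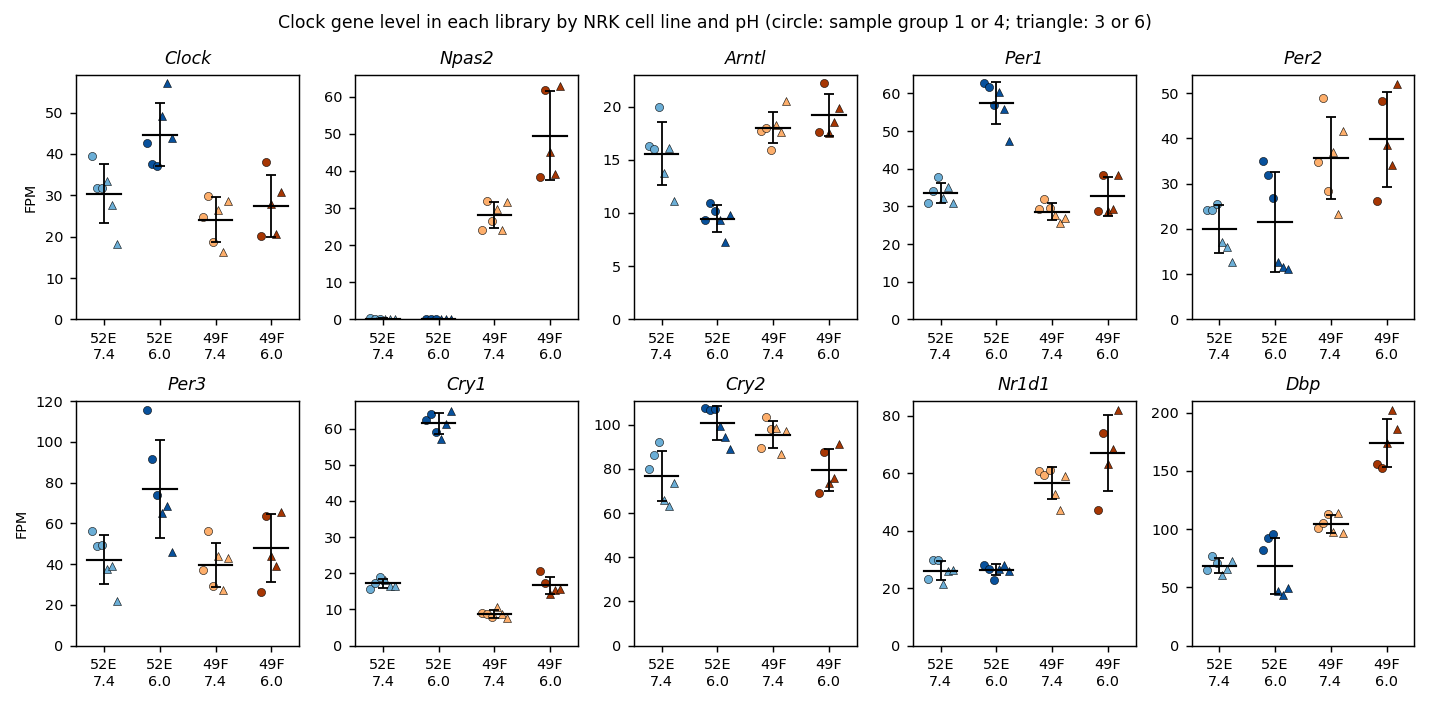
Level of each clock gene in FPM in every sample, by cell line and pH, with bars for the mean and the SD of each condition. The NRK-52E samples at pH 6.0 lie between 57.1 and 64.8 FPM for Cry1, above all other samples, and those of Npas2 lie near 0 at both pH values.

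Among the activators, Arntl (ENSRNOG00000014448, chromosome 1) had a lowest, median and highest level of 11.2, 16.1 and 19.99 FPM in NRK-52E cells at pH 7.4 and of 7.28, 9.56 and 10.9 FPM at pH 6.0. All 6 acid samples thus lay below all 6 control samples. The log2 fold change was -0.72 (standard error, SE, 0.12; adjusted p = 1.48e-05, edgeR), and it was -0.70 in sample group 1 and -0.56 in sample group 3 when each was scaled and fitted alone. This is the gene whose promoter stretch above carries the core shared by REV-ERBα and the ROR factors.

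Clock (ENSRNOG00000002175, chromosome 14), the usual partner of BMAL1, went the other way. Its lowest, median and highest levels were 18.3, 31.7 and 39.6 FPM at pH 7.4 and 37.1, 43.2 and 57.1 FPM at pH 6.0. The log2 fold change was 0.55 (SE 0.18, adjusted p = 0.0109, edgeR), but the ranges overlapped, since 1 control sample reached into the acid range. The rise was 1.00 in sample group 3 alone (adjusted p = 0.00166) and 0.26 in sample group 1 alone, where it missed the threshold (adjusted p = 0.0523, both edgeR).

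Npas2 (ENSRNOG00000013408, chromosome 9), the paralog that can stand in for Clock, was barely detected in the epithelial line. Its counts per sample were 1, 1, 2, 3, 4 and 13 at pH 7.4 and 0, 0, 0, 1, 1 and 2 at pH 6.0. Set against the level of 3 counts on average over the samples, the mean at pH 6.0 was at least 1.01-fold lower, and the fitted change passed the test (adjusted p = 0.00655, edgeR). The 13 counts were those of replicate A021, and without this sample the fitted change no longer passed (adjusted p = 0.0555, edgeR). In A021 the Npas2 level was 1.30% of the mean of NRK-49F cells at pH 7.4, and the fibroblast genes Pdgfra, Vcam1, Col1a1 and Lum, chosen after their values were seen, stood there at 1.54%, 1.47%, 2.05% and 2.37% of theirs. All 5 genes were higher in A021 than in any other control sample of the line. Over all 12 fibroblast markers A021 had the lowest sum of these control samples, 5711 FPM, with Thy1 and Dcn at 0. That sum is mostly Col3a1, with a mean of 6149 FPM in NRK-52E and 1212 FPM in NRK-49F cells at pH 7.4. In the latter samples Thy1 was at 0 too, and Dcn averaged 4.00 FPM. Among the control samples of NRK-52E cells, A021 also had the highest level of Col1a2 and Postn (52.9 and 80.0 FPM). It had the lowest level of Col3a1 and Pdgfrb (4678 and 38.6 FPM), and Vim and Fap lay between. The part of these levels in the Npas2 call was not tested beyond leaving A021 out.

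Of the repressors, Cry1 (ENSRNOG00000006622, chromosome 7), which codes for a potent repressor of the activator pair, had a lowest, median and highest level of 15.7, 16.9 and 19.0 FPM at pH 7.4 and of 57.1, 61.8 and 64.8 FPM at pH 6.0. The lowest acid sample was thus far above the highest control sample. Its mean rose from 17.2 ± 1.24 to 61.5 ± 2.93 FPM (SD, n = 6 each), or by 1.84 on the log2 scale (SE 0.091, adjusted p = 9.13e-14, edgeR). Fitted alone, sample groups 1 and 3 both gave 1.92. Cry1 rose where Arntl fell. The number of Cry1 counts per Arntl count, which is not corrected for length and is compared only between libraries, had a lowest, median and highest value of 0.953, 1.05 and 1.48 at pH 7.4 and of 5.81, 6.38 and 8.42 at pH 6.0.

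Cry2 (ENSRNOG00000007478, chromosome 3), the second cryptochrome, changed less. Its levels were 63.1, 76.6 and 92.2 FPM (lowest, median and highest) at pH 7.4 and 88.8, 103 and 108 FPM at pH 6.0, with a log2 fold change of 0.39 (SE 0.091, adjusted p = 0.000714, edgeR). The ranges overlapped over all samples, but within sample group 1 (79.7 to 92.2 and 107 to 108 FPM) and within sample group 3 (63.1 to 73.5 and 88.8 to 99.4 FPM) they did not. Fitted alone, the sample groups gave 0.40 and 0.56.

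The Per genes, which code for the partners of the cryptochromes, differed among themselves. Per1 (ENSRNOG00000007387, chromosome 10), which also responds quickly to signals from outside the cell, had a lowest, median and highest level of 31.0, 33.2 and 37.7 FPM at pH 7.4 and of 47.4, 58.7 and 62.7 FPM at pH 6.0. These ranges did not overlap, and the log2 fold change was 0.78 (SE 0.091, adjusted p = 1.06e-07, edgeR), with 0.90 and 0.82 in the sample groups alone. For Per3 (ENSRNOG00000018413, chromosome 5) the levels were 22.1, 44.0 and 56.2 FPM at pH 7.4 and 46.0, 71.2 and 116 FPM at pH 6.0. Per3 was thus more variable, its ranges overlapped, and its log2 fold change was 0.86 (SE 0.24, adjusted p = 0.00332, edgeR), or 0.94 in either sample group alone. Per2 (ENSRNOG00000020254, chromosome 9), the member whose promoter stretch holds both an E-box variant and a D-box, ranged from 12.7 to 25.5 FPM at pH 7.4 and from 11.2 to 35.1 FPM at pH 6.0. Its log2 fold change of 0.11 (SE 0.27) did not pass the test (adjusted p = 0.757, edgeR), and its levels separated by sample group, as described below.

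Nr1d1 (ENSRNOG00000009329, chromosome 10), the repressor of Arntl, ranged from 21.4 to 29.8 FPM at pH 7.4 and from 22.8 to 28.1 FPM at pH 6.0 in NRK-52E cells. Its log2 fold change of 0.02 (SE 0.11) did not pass the test (adjusted p = 0.914, edgeR), and its part in the fall of Arntl was not tested. Nr1d1 overlaps the thyroid hormone receptor gene Thra on the other strand in RefSeq, and whether the counting used strand is not given in the sources used here. Thra fell from a mean of 106 to 52.1 FPM in the same samples (log2 fold change -1.03, adjusted p = 2.26e-08, edgeR), and how reads of both were assigned was not tested.

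Dbp (ENSRNOG00000021027, chromosome 1), the output of the loop in this set, had nearly the same mean at both pH values, 68.7 ± 6.11 and 68.4 ± 24.3 FPM (SD, n = 6 each). The log2 fold change was -0.01 (SE 0.16, adjusted p = 0.980, edgeR). The wider spread at pH 6.0 followed the sample groups, in which the level moved in opposite directions, as described below.

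In the fibroblast line the same exposure changed fewer of these genes. Cry1 rose 1.89-fold, Npas2 and Dbp rose, Cry2 was slightly lower, and the other 6 genes did not pass the test. That is 3 genes higher and 1 lower of 10, against 28.9% of all tested genes called, 14.5% higher and 14.4% lower (edgeR, the same threshold). The median log2 fold change of the 10 genes was 0.22, and that of all tested genes was 0.00. The 3 genes that rose were also those without overlap between the pH values, which 20.6% of all tested genes showed.

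Npas2 was a measured activator in NRK-49F cells, unlike in NRK-52E cells. Its lowest, median and highest levels were 24.1, 28.2 and 32.0 FPM at pH 7.4, and the samples at pH 6.0 had 38.5, 61.9, 45.1, 39.2 and 62.8 FPM. Every acid sample was above every control sample, with a log2 fold change of 0.82 (SE 0.18, adjusted p = 0.00123, edgeR). Fitted alone, sample group 6 gave 0.77 (adjusted p = 0.0317) and sample group 4, with n = 2 acid samples, gave 0.86 without passing (adjusted p = 0.0733, both edgeR). Clock, with 16.3 to 29.9 FPM at pH 7.4 and 20.1 to 37.9 FPM at pH 6.0, and Arntl, with 15.9 to 20.5 and 17.5 to 22.3 FPM, had log2 fold changes of 0.19 and 0.09 that did not pass (adjusted p = 0.504 and 0.631, edgeR).

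Cry1 in NRK-49F cells had a lowest, median and highest level of 7.65, 8.79 and 10.8 FPM at pH 7.4, while the samples at pH 6.0 had 20.6, 17.3, 14.4, 15.4 and 15.7 FPM. The lowest acid sample exceeded the highest control sample, and the log2 fold change was 0.91 (SE 0.096, adjusted p = 1.38e-07, edgeR), with 1.14 and 0.73 in sample groups 4 and 6 alone. The number of Cry1 counts per Arntl count rose with it, from 0.374 to 0.590 over the control samples to 0.778 to 1.17 over the acid samples.

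Cry2 was between 86.6 and 104 FPM at pH 7.4, with a median of 97.6 FPM, and the acid samples had 69.0, 87.5, 73.5, 75.9 and 91.2 FPM. These ranges overlapped. The log2 fold change of -0.27 (SE 0.096) was close to the threshold (adjusted p = 0.0393, edgeR), and it no longer passed in 7 of the 11 fits that left out 1 sample of the line (A040, A041, A042, A051, A053, A054 or A055, adjusted p up to 0.114), nor within either sample group alone (adjusted p = 0.290 and 0.208).

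The remaining repressors moved little against their spread in these fibroblasts. Per1 ranged from 25.7 to 32.1 FPM at pH 7.4 and from 28.8 to 38.4 FPM at pH 6.0, with a log2 fold change of 0.19 (adjusted p = 0.137, edgeR). For Per2 and Per3 the log2 fold changes were 0.16 and 0.27, with SE of 0.28 and 0.25 (adjusted p = 0.723 and 0.457, edgeR). Nr1d1 had 47.0 to 61.2 FPM at pH 7.4 and 47.3 to 82.1 FPM at pH 6.0, and its log2 fold change of 0.24 did not pass (adjusted p = 0.116), although it did without replicate A042 (0.34, adjusted p = 0.0144, both edgeR). Thra had a log2 fold change of -0.25 here (adjusted p = 0.109, edgeR).

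Dbp, which carries the output of the loop to genes with D-boxes, had a lowest, median and highest level of 96.3, 103 and 114 FPM at pH 7.4, and 156, 153, 174, 202 and 186 FPM at pH 6.0. No acid sample reached down to the control samples. Its mean rose 1.67-fold, a log2 fold change of 0.74 (SE 0.16, adjusted p = 0.00139, edgeR). Sample group 4 alone gave 0.53 (adjusted p = 0.0491) and sample group 6 alone 0.86 (adjusted p = 0.00167, both edgeR).

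**Figure D2:**
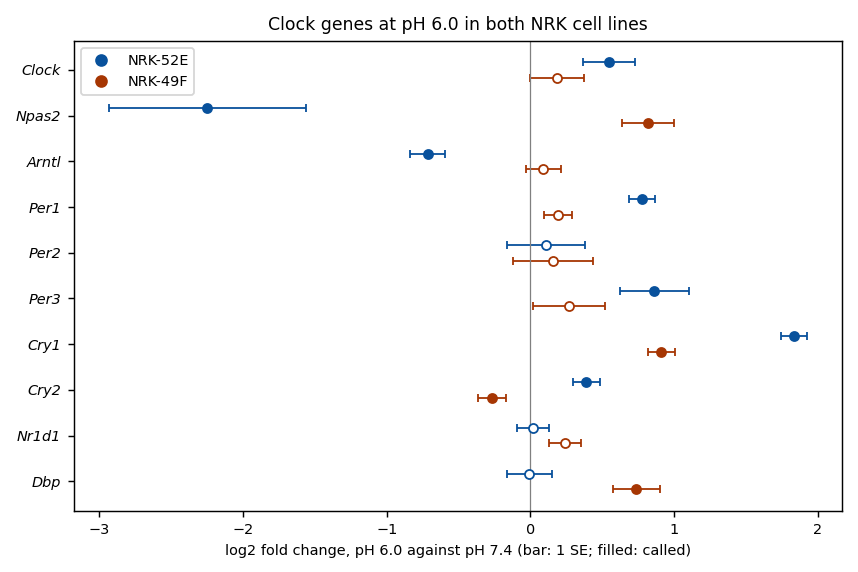
Log2 fold change of each clock gene from pH 7.4 to pH 6.0 in NRK-52E and NRK-49F cells, with bars of 1 SE and filled points for genes called by edgeR. Cry1 is the gene called higher in both lines (1.84 and 0.91), and Cry2 is called with opposite signs (0.39 and -0.27).

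Whether the pH response differed between the lines was tested directly, as the difference of both responses. It differed for 6 of the 10 genes, 3 of them with a larger value in NRK-52E cells and 3 with a smaller one, while 41.4% of all tested genes were called, 16.8% with a larger and 24.7% with a smaller value (edgeR). The response of NRK-52E cells minus that of NRK-49F cells was larger for Cry1 by 0.93 on the log2 scale (SE 0.13, adjusted p = 5.40e-06), for Cry2 by 0.66 (SE 0.13, adjusted p = 0.000329) and for Per1 by 0.59 (SE 0.13, adjusted p = 0.00104, edgeR throughout). All 3 code for repressors of the loop, but so do Per2, Per3 and Nr1d1, whose differences did not pass. The genes with a smaller value were Arntl at -0.80 (SE 0.17, adjusted p = 0.000526), Dbp at -0.74 (SE 0.23, adjusted p = 0.0111) and Npas2 (adjusted p = 0.00113, edgeR). The value for Dbp averages over opposite responses of NRK-52E cells. Its mean went from 71.1 to 90.1 FPM in sample group 1 and from 66.4 to 46.6 FPM in sample group 3. The fitted difference of -3.07 for Npas2 rests on the few counts of NRK-52E cells and is no bound on its size. Clock, Per2, Per3 and Nr1d1 had differences of 0.36, -0.05, 0.59 and -0.23 that did not pass, with SE of 0.26, 0.39, 0.35 and 0.16.

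Compared at the same pH, the lines differed in most of these genes, as they did in most genes. At pH 7.4, 2 of the 10 genes had a higher and 5 a lower level in the epithelial than in the fibroblast line, against 68.8% of all tested genes called, 35% higher and 33.9% lower (edgeR). The levels did not overlap for 4 of them (Npas2, Cry1, Nr1d1 and Dbp), as for 50.7% of all tested genes. At pH 6.0 all 10 genes were called, 5 in each direction, against 75.5% of all tested genes, 36.6% higher and 38.9% lower, and 6 of them did not overlap (the former 4, Arntl and Per1), as for 57.3% of all tested genes. The median log2 difference of the 10 genes was -0.26 at pH 7.4 and -0.27 at pH 6.0, against 0.02 and -0.02 over all tested genes.

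Npas2 separated the lines most widely. Its mean was 188-fold lower in NRK-52E than in NRK-49F cells at pH 7.4, and at least 337-fold lower at pH 6.0 when the epithelial line was set at the average level of 3 counts (adjusted p = 9.40e-17 and 5.90e-18, edgeR). The former value rests on A021, without which the mean of the epithelial line was below the level of 3 counts, so that only a bound of at least 188-fold lower remains, and the fitted log2 difference went from -7.33 to -7.96. Npas2 passed the count filter only through its level in NRK-49F cells. A gene with so few counts in NRK-52E cells is tested only if NRK-49F cells have more. The direction of the Npas2 calls between the lines was thus set by the filter, and its p-values are no separate evidence for that direction. Npas2 is included in the counts of called and of non-overlapping genes given above for both pH values. The other activators differed less. Arntl was similar at pH 7.4 (log2 difference -0.21, adjusted p = 0.115) and 2.02-fold lower in NRK-52E cells at pH 6.0 (-1.01, adjusted p = 7.54e-08), while Clock had differences of 0.34 (adjusted p = 0.100) and 0.70 (adjusted p = 0.00202, edgeR throughout).

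Among the repressors, Cry1 was higher in NRK-52E cells, 1.95-fold at pH 7.4 and 3.69-fold at pH 6.0 (log2 differences 0.96 and 1.88, adjusted p = 1.71e-09 and 1.39e-14, edgeR). In order of its mean level, NRK-52E cells at pH 6.0 came first with 61.5 FPM, followed by NRK-52E cells at pH 7.4 with 17.2 FPM and NRK-49F cells at pH 6.0 with 16.7 FPM, whose samples overlapped, and by NRK-49F cells at pH 7.4 with 8.83 FPM. Cry2 changed order with pH, from lower in NRK-52E cells at pH 7.4 (-0.31, adjusted p = 0.00390) to higher at pH 6.0 (0.34, adjusted p = 0.00255, edgeR). Per1 was higher in NRK-52E cells by 0.82 at pH 6.0 (adjusted p = 4.78e-08), and by 0.23 at pH 7.4 (adjusted p = 0.0286), where the call was lost in 5 of the 12 fits that left out 1 sample (A023, A034, A051, A052 or A053, adjusted p up to 0.0730, edgeR). Per2 was lower at both pH values, by 0.83 and 0.88 on the log2 scale (adjusted p = 0.00895 and 0.00683, edgeR), with overlapping samples. At either pH, sample group 1 of NRK-52E cells lay within the NRK-49F range and sample group 3 below it. At pH 6.0 these were 26.8 to 35.1 and 11.2 to 12.6 FPM, against 26.2 to 52.1 FPM in NRK-49F cells. Per3 had log2 differences of 0.10 at pH 7.4 (adjusted p = 0.737) and 0.69 at pH 6.0 (adjusted p = 0.0174), and the latter was lost without A024 or without A042 (adjusted p = 0.0573 and 0.0592, edgeR).

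Nr1d1 and Dbp were lower in NRK-52E cells throughout. For Nr1d1 the mean was 2.17-fold lower at pH 7.4 and 2.54-fold lower at pH 6.0 (log2 differences -1.12 and -1.35, adjusted p = 2.74e-09 and 1.56e-10, edgeR). For Dbp it was 1.52-fold and 2.55-fold lower (log2 differences -0.60 and -1.35, adjusted p = 0.00159 and 8.00e-08, edgeR). No sample of one line reached the range of the other for either gene at either pH. These comparisons between lines share samples with those between pH values, so they are not independent of them.

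**Figure D3:**
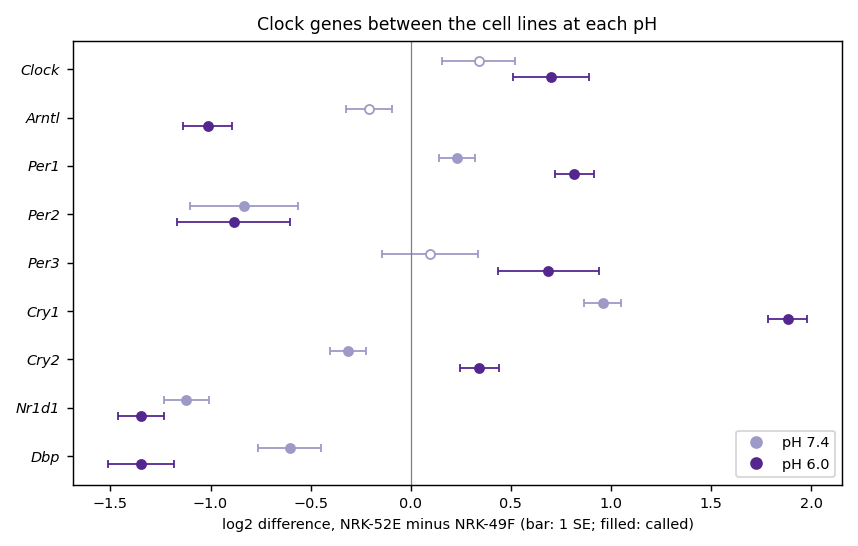
Log2 difference of the epithelial line minus the fibroblast line at pH 7.4 and at pH 6.0 for 9 of the clock genes, with bars of 1 SE and filled points for genes called by edgeR. Npas2 is left out because its difference is far outside the axis. Cry1 lies above 0 at both pH values (0.96 and 1.88), Nr1d1, Dbp and Per2 lie below 0, and Cry2 crosses from -0.31 to 0.34.

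The samples of NRK-52E cells were also compared between their sample groups. With both pH values together, 4 of the 10 genes were lower in sample group 3 than in sample group 1, and 25.2% of all tested genes were called (edgeR). Per2 was lower by 1.04 on the log2 scale (SE 0.17, adjusted p = 0.000153), Dbp by 0.52 (adjusted p = 1.41e-05), Per3 by 0.64 (adjusted p = 0.0353) and Cry2 by 0.27 (adjusted p = 0.00994, edgeR throughout). The call on Per3 did not hold in 8 of the 12 fits that left out 1 sample (A021, A022, A023, A024, A025, A035, A036 or A038). The 10 genes had a median log2 difference of -0.27, and all tested genes one of -0.03.

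Within the control samples, 0 of the 10 genes were called by edgeR between these sample groups (3 at an unadjusted p under 0.05), and 2.96% of all tested genes were. Within the acid samples, Per2 and Dbp were called, 2 of 10, with 27.8% of all tested genes. In NRK-49F cells, edgeR called 0 of the 10 genes between sample groups 6 and 4 (0 at an unadjusted p under 0.05, and 0 by DESeq2), and 0.088% of all tested genes.

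Dbp was the 1 gene of the 10 whose pH response differed between the sample groups of NRK-52E cells, against 10.6% of all tested genes (edgeR). In sample group 1 its levels were 64.8, 77.2 and 71.2 FPM at pH 7.4 and 81.8, 92.6 and 95.9 FPM at pH 6.0. In sample group 3 they were 60.6, 65.6 and 73.0 FPM at pH 7.4 and 47.0, 43.5 and 49.4 FPM at pH 6.0. All acid samples were thus above the control samples in the former and below them in the latter. The response of sample group 3 minus that of sample group 1 was -0.85 (SE 0.14, adjusted p = 0.000455, edgeR), and fitted alone the sample groups gave 0.43 (adjusted p = 0.000982) and -0.43 (adjusted p = 0.00729, edgeR).

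Per2 had a pattern of the same kind that did not pass in this test. It had 24.2, 24.3 and 25.5 FPM at pH 7.4 and 35.1, 31.9 and 26.8 FPM at pH 6.0 in sample group 1, and 17.2, 16.1 and 12.7 FPM and 12.6, 11.6 and 11.2 FPM in sample group 3. The difference of its responses was -0.72 (SE 0.34, adjusted p = 0.2003, edgeR). Fitted alone, sample group 1 gave 0.42 (adjusted p = 0.00500) and sample group 3 gave -0.29 (adjusted p = 0.125, edgeR). Cry1, by contrast, had log2 differences between the sample groups of -0.02 at either pH, neither of which passed (adjusted p = 0.943 and 0.944, edgeR).

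**Figure D4:**
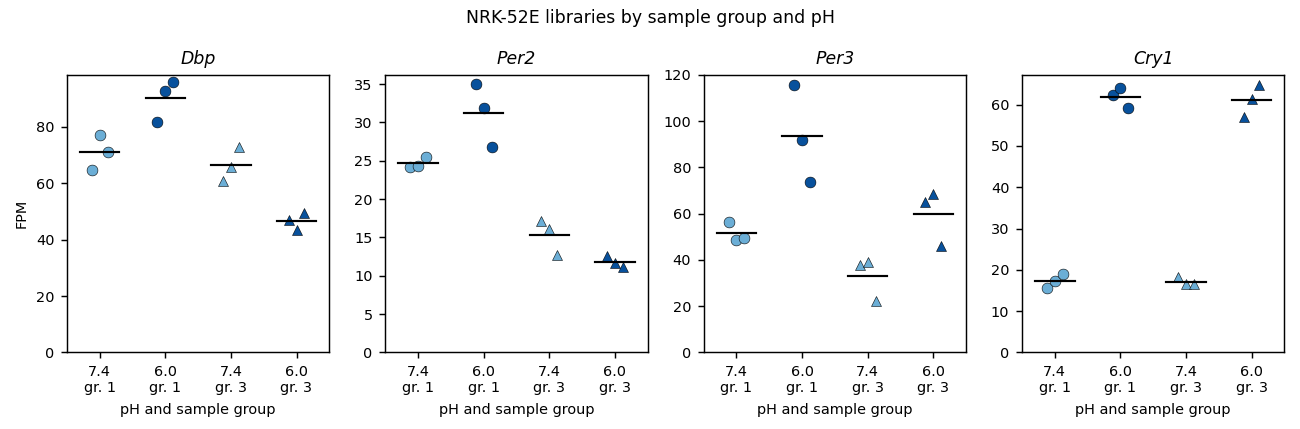
Levels of clock genes in FPM in the samples of NRK-52E cells, by sample group and pH. Dbp goes from 64.8 to 77.2 up to 81.8 to 95.9 FPM in sample group 1 and from 60.6 to 73.0 down to 43.5 to 49.4 FPM in sample group 3, whereas Cry1 lies between 57.1 and 64.8 FPM at pH 6.0 in both.

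Within a condition, several of these genes varied together with the make-up of the library. The share of counts taken by 74 genes of cytosolic ribosomal proteins ranged from 5.85% to 10.1% over the 23 samples. Deviations of log2 FPM from the condition mean had a Pearson coefficient with the deviations of this share of -0.84 for Clock and -0.83 for Per3 (Spearman -0.76 and -0.75, n = 23 samples), and of 0.13 for Cry1 and 0.19 for Dbp. The other 6 genes lay between -0.68 and -0.46. Both quantities come from the same libraries, so these coefficients are a description. With the share as a covariate, a setting added once the data had been seen, the same 7 genes were called in NRK-52E cells, while Per1 (0.19, adjusted p = 0.0446) and Nr1d1 (0.23, adjusted p = 0.0489) were called in NRK-49F cells in addition (edgeR).

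Over all 23 samples, the genes whose pattern of log2 FPM was most like that of a clock gene were ranked by Pearson's coefficient among the 9961 genes that averaged 5 FPM or more. Cry1 was closest to Tial1, Luc7l and Tmem62 (each 0.98), Arntl to Tcf7 (0.96), Clock to Mospd2 (0.97) and Gsk3b (0.96), and Npas2 to Diras2, Sorl1 and Enpep (each 1.00). Per1 was closest to Mapk1ip1 (0.98), Per2 to Slc6a6 (0.97), Per3 to Ubr4 (0.96), Nr1d1 to Fam214b (0.97) and Dbp to Gng8 (0.97). Cry2 had the least similar nearest gene, Rarg with 0.91. The coefficients span both lines and both pH values, so a difference between lines alone gives high values, as for Npas2. Ranked by Spearman's coefficient, the 3 nearest genes shared 0 with those by Pearson's for Cry1, Arntl and Npas2, and 1 or 2 for each of the other 7 genes.

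Other genes of the pathway were taken from lists of general knowledge. Of 9 tested components of the loops outside the 10 genes, 3 were higher and 3 lower at pH 6.0 in NRK-52E cells, with a median log2 fold change of -0.53, and the fibroblasts had 4 higher and 1 lower, with a median of 0.14 (edgeR). Over all tested genes, 61.2% were called in the former and 28.9% in the latter, with medians of -0.12 and 0.00. Ciart, which codes for a repressor of CLOCK and BMAL1, rose in both lines, from 2.08 to 9.74 FPM in NRK-52E cells (2.22 on the log2 scale, adjusted p = 1.82e-09) and from 1.95 to 3.94 FPM in NRK-49F cells (1.01, adjusted p = 0.000856, edgeR). So did Nfil3, which codes for a repressor at D-boxes, by 0.83 and 0.57 (adjusted p = 0.000839 and 0.0408, edgeR), as Cry1 did among the 10 genes. In NRK-52E cells the Nfil3 ranges overlapped, with 15.6 to 22.9 FPM at pH 7.4 and 19.3 to 45.0 FPM at pH 6.0. Nr1d2, the paralog of Nr1d1, rose in NRK-52E cells by 0.28. Hlf and Tef, which code for relatives of DBP, fell by 3.93 and 0.53 on the log2 scale in the epithelial line, Hlf from 13.5 to 0.868 FPM. Hlf also passed the test in NRK-49F cells, where its counts were 3 to 15 in controls and 0 to 2 in acid samples, which makes it at least 1.91-fold lower against the average level of 3 counts. Arntl2, the paralog of Arntl, fell in NRK-52E cells from 5.78 to 1.56 FPM (-1.89, adjusted p = 1.64e-06, edgeR), alongside Arntl itself. Bhlhe41, a repressor that competes at E-boxes, had at most 7 counts in NRK-52E samples and rose in NRK-49F cells from 20.8 to 42.3 FPM (1.02, adjusted p = 0.000121, edgeR). Among genes for activating counterparts of REV-ERBα, Rora had at most 1 count and Rorb 0 in any NRK-52E sample, whereas Rora had means of 3.49 and 2.67 FPM in NRK-49F cells at pH 7.4 and pH 6.0.

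Of 15 genes for enzymes and other proteins that modify clock proteins, 6 were higher and 6 lower at pH 6.0 in the epithelial line (median -0.02), against 0 and 2 in the fibroblasts (median 0.05, edgeR), beside 61.2% and 28.9% of all tested genes. Usp2, a deubiquitinase that acts on clock proteins, and the kinase genes Gsk3a and Gsk3b rose in the epithelial line by 1.31, 0.76 and 0.55 on the log2 scale. Timeless, Fbxl21 and Sirt1 fell there, with log2 fold changes of -1.79, -1.73 and -1.09, and Timeless is also known for its part at the replication fork. Sirt1 and Ppp1ca fell in NRK-49F cells, with log2 fold changes of -0.51 and -0.36. Of 11 tested output genes, 6 were higher and 4 lower in the epithelial line (median 0.42), against 2 and 1 in the fibroblasts (median 0.02, edgeR), beside the same 61.2% and 28.9%. Cdkn1a, the cell cycle inhibitor p21 and a target of several other pathways, went up in NRK-52E cells from a mean of 17.4 to 370 FPM (4.41). At pH 6.0 it had a wide range of 190 to 550 FPM (SD 187, n = 6), and its levels by sample group were not compared. Klf9 and Pdk4 rose there by 1.49 and 1.47, whereas Ppp1r3c and Tsc22d3 fell by 1.38 and 0.91 on the log2 scale. Dtx4 was called lower there between low levels, from 0.432 to 0.132 FPM, the latter below the average level of 3 counts (0.147 FPM). Its counts were 4 to 23 at pH 7.4 and 0 to 6 at pH 6.0, and it passed the count filter only through its level in NRK-49F cells. Klf10 rose in NRK-49F cells by 0.38. Pdk4, the 1 output gene called lower there, went from 0.395 to 0.0907 FPM, the latter below the average level of 3 counts (0.144 FPM). Its counts were 1 to 31 at pH 7.4 and 0 to 4 at pH 6.0, and it passed the count filter only through its level in NRK-52E cells. Nampt, whose product makes NAD precursors in a rhythm, rose in both lines by 0.65 and 0.53.

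**Figure D5:**
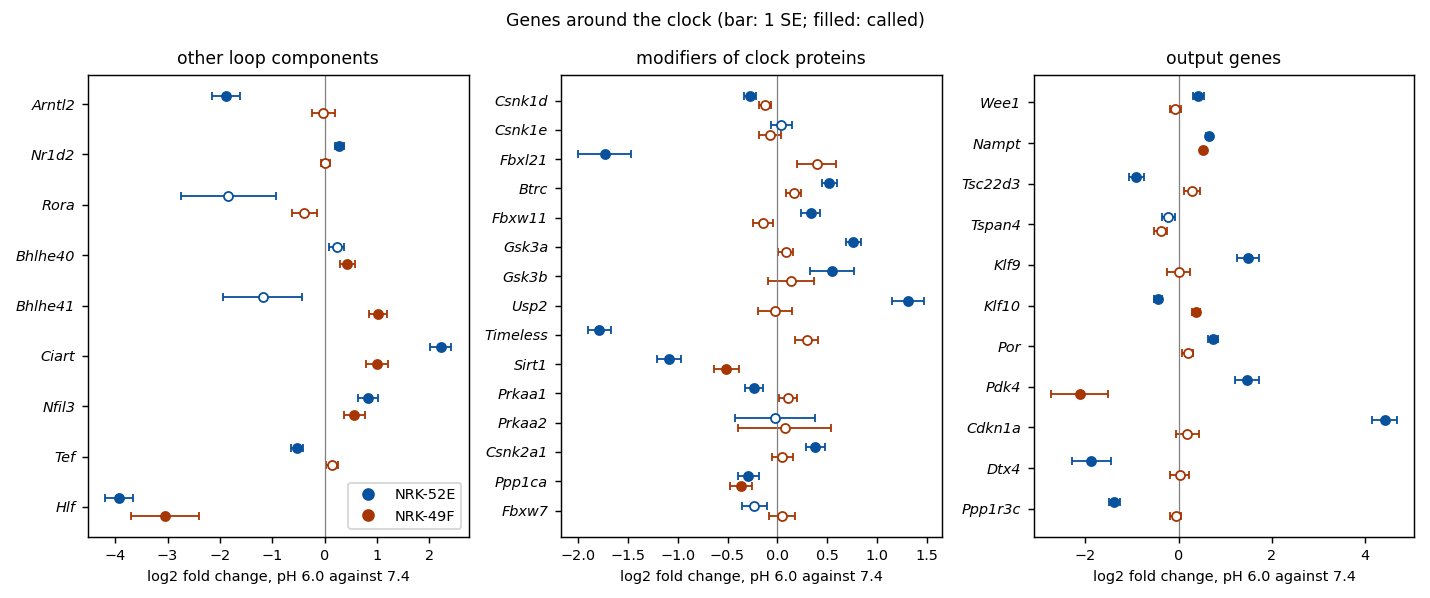
Log2 fold changes from pH 7.4 to pH 6.0 of the tested genes of the other loop components, the modifiers of clock proteins and the output genes in NRK-52E and NRK-49F cells, with filled points for genes called by edgeR. In NRK-52E cells the values run from -3.93 for Hlf to 4.41 for Cdkn1a.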

How the data were processed

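Read pairs were obtained from poly(A) RNA of 23 samples. The values used are raw counts per Ensembl gene as deposited. The authors mapped the reads with HISAT2 2.1.0 and counted those on exons with featureCounts, keeping reads that map to several places, and applied no normalization. The study's methods name the genome rn7 and the submitters' processing notes rn6, and the strand setting is not given in the sources used here. A further 13 columns matched no sample label and were not used.

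Groups are cell line and pH as labelled. A model of 4 conditions over all 23 samples was fitted with edgeR 4.0.16 (R 4.3.3), with genes kept by filterByExpr (minimum count 10, minimum total 15), TMM scaling and the quasi-likelihood test. Sample groups were compared in a model with 8 conditions. Genes were called at an adjusted p under 0.05 (Benjamini-Hochberg, all tested genes). Standard errors were derived from the log2 fold change and its F statistic. FPM are counts per 1000000 counts of the library size after scaling with TMM factors (trimmed mean of M values). Fits of a sample group alone were filtered and scaled anew, so their log2 fold changes can be offset from those over all samples. In NRK-52E cells, for example, both sample groups gave Cry1 and Arntl a value above that over all samples. Depth ranged from 16412564 to 34250535 counts, and the floor of 3 counts covers counting error only. DESeq2 1.42.0 was an alternative, as were other scalings, filters and thresholds, thinned libraries, each sample group, each line, and each replicate left out. The steps were tested on simulated data. Python 3.11.15 with matplotlib 3.10.9 drew the figures.

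The 10 genes and the other lists were chosen with earlier results of these data known. Genes of the other lists are named by a rule, which takes per list and line up to 3 called genes each way, by size of the fitted change, if they average 1 FPM or more, and others named besides them were chosen after their values were seen. Some genes were left out of these lists and are not reported here. Promoter sequences are from RefSeq, assembly GRCr8.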

Additional observations from a re-analysis of the deposited data

Results flagged for a closer look

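The pH response differed between the cell lines, in a test of the difference itself, for 6 of the 10 clock genes. The response of NRK-52E cells minus that of NRK-49F cells on the log2 scale was 0.93 for Cry1, 0.66 for Cry2, 0.59 for Per1, -0.80 for Arntl, -0.74 for Dbp and -3.07 for Npas2, the last of which rests on at most 13 counts per NRK-52E sample. Within NRK-52E cells, the pH response of Dbp differed between the sample groups, with -0.85 for sample group 3 minus sample group 1. The difference of Dbp between the lines thus averages over responses in opposite directions. In 40 sets of samples (each gene in each condition), 0 had a sample that stood apart by Dixon's test at 95%, where chance alone gives about 1 in 20.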

How the results depend on the processing

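No paired analysis was possible because no replicate code occurs at both pH values or in both cell lines. The number of clock genes called was within 1.5 times the reported number under RLE and upper quartile scaling, DESeq2, calls by both tools, either filter, an adjusted p under 0.01, thinning, the cell line alone and the sample group as a block, in each comparison to which these were applied. With 1 replicate left out, 6 to 7 genes were called in NRK-52E cells, 3 to 4 in NRK-49F cells and 6 between the responses of the lines. Sample group 4 alone gave 2 genes in NRK-49F cells in place of 4. Between sample groups 3 and 1 of NRK-52E cells, 4 genes became 0 at pH 7.4 alone and 2 at pH 6.0 alone, with fewer samples in each. Dbp in NRK-52E cells had a log2 fold change of 0.43 in sample group 1 alone, against -0.01 over all samples, and -0.43 in sample group 3 alone. With the share of ribosomal protein genes as a covariate, chosen after the data were seen, 3 genes (Dbp, Per2 and Clock) in place of 1 differed in pH response between these sample groups, and the cause was not tested. Of 1859 refits of single genes, 1690 kept their direction and call, 41 lost and 17 gained a call, 1 reversed and 110 changed sign without being called. Npas2 could not be fitted with at least 10 counts in every sample, nor in fits of NRK-52E cells alone. Depth limits genes near the floor of 3 counts, among them Npas2, Bhlhe41, Rora and Dtx4 in NRK-52E cells and Hlf and Pdk4 in NRK-49F cells.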
